A study of Anas platyrhynchos with 20 samples.

Results

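Interferons are signalling proteins that cells release when they sense a virus. Their receptors activate Janus kinases and STAT transcription factors, which with interferon regulatory factors (IRFs) switch on a broad set of antiviral genes, and inhibitors such as SOCS1 and USP18 then restrain the signal. Part of this set is transcribed at a low level in healthy tissue, and in the liver both hepatocytes and Kupffer cells, the resident macrophages, are able to respond. The genes described here are 9 named members of this response, STAT2, IRF1, IRF7, IFIT5, RSAD2, EIF2AK2, OASL, CMPK2 and USP18, taken from the deposited expression table by gene name. Of the 25117 genes listed there, 7 carried one of the 9 names, and no gene name was IFIT5 or OASL.

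The values came from RNA-seq of male Runzhou white-crested ducks. One set of ducks ate a basal diet to which 2% duck oil was added (control). The other set ate that basal diet with 2% linseed oil in place of the duck oil (high linseed oil). The labels give day 28 for every sample. By the study's account the ducks were 28 days old when these diets began and ate them for 28 days before they were killed. The 4 groups were CL (control, liver), HL (linseed, liver), CM (control, breast muscle) and HM (linseed, breast muscle), each of 5 libraries, which makes 20. The ducks were not drawn at random from their diets, since by the study's account those with the lowest n-3 fatty acid ratios were sequenced for the control and those with the highest for the linseed group, so that diet and this selection cannot be told apart. Expression is given as FPKM, fragments divided by the length of the gene and by a scale of the library, so that levels can be compared between genes of different length.

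The liver libraries held 15417718 to 16705165 fragments and the muscle libraries 11852903 to 13432987. The tissue labels matched their defining markers. Summed FPKM of 8 hepatocyte genes ranged from 122051 to 240100.3 in liver and from 9.27 to 144 in muscle, and that of 5 skeletal muscle genes from 0.886 to 5.0 in liver and from 29439.5 to 58959 in muscle. Over the 9543 genes tested in liver, CL 1 had a mean Pearson's r of 0.912 with the rest of CL, against 0.953 to 0.957 for the other 4 control libraries, and HL 3, at 0.957, lay within the 0.946 to 0.964 of the other HL libraries. In muscle HM 2 had a mean r of 0.911 against 0.943 to 0.953 in the rest of HM, and a summed FPKM of 597368 against at most 388387 in the other 9 libraries. The study's text counts fewer ducks than libraries, with as many ducks as 1 tissue has libraries, so by that count liver and muscle libraries share ducks. The labels do not say which. The tests between tissues treat the libraries as independent and leave this pairing out.

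Of the 7 genes, 6 lie on assembled duck chromosome sequences and STAT2 lies on the unplaced scaffold NW_024009682.1, at 381520 to 386581 on the plus strand (build ZJU1.0, coordinates from the table). There it overlaps RBMS2 on the same strand, an RNA-binding protein gene with a mean of 1.87 FPKM over all libraries, and fragments of the overlap may have been split between them. EIF2AK2, on NC_051774.1 at 31925332 to 31967742 on the minus strand, overlaps GPATCH11 on the plus strand, which averaged 11.2 FPKM, and the strand setting of the counting is not given in the sources used here. RSAD2 and CMPK2 are neighbours on NC_051774.1. CMPK2 runs from 102399534 to 102406012 on the minus strand and RSAD2 from 102411889 to 102417090 on the plus strand, so the pair is transcribed away from each other across 5876 bases with 0 other genes between. The remaining genes are IRF1 (NC_051785.1, 1711793 to 1717970, plus strand), IRF7 (NC_051776.1, 46789447 to 46793003, minus strand) and USP18 (NC_051772.1, 65308987 to 65324843, plus strand).

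All 7 genes were detected in every library, and their order differed between the tissues. In the liver the means over 10 libraries were 12.8 FPKM for IRF1, 7.58 for CMPK2, 5.53 for EIF2AK2, 4.71 for IRF7, 4.64 for RSAD2, 2.42 for STAT2 and 1.40 for USP18. IRF1 was above CMPK2 in 9 of 10 liver libraries, whereas CMPK2, EIF2AK2, IRF7 and RSAD2 followed each other in that order in only 6 of 10 libraries for each neighbouring pair, so the middle of the order was not separated beyond the spread. In breast muscle IRF1 led more clearly, with 18.0 FPKM against 3.34 for EIF2AK2 and above it in 10 of 10 libraries. IRF7 followed at 2.24, STAT2 at 1.70, USP18 at 1.27, CMPK2 at 1.02 and RSAD2 at 0.479. USP18 and CMPK2 were not separated there, with USP18 the higher in 5 of 10 libraries.

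**Figure D1:**
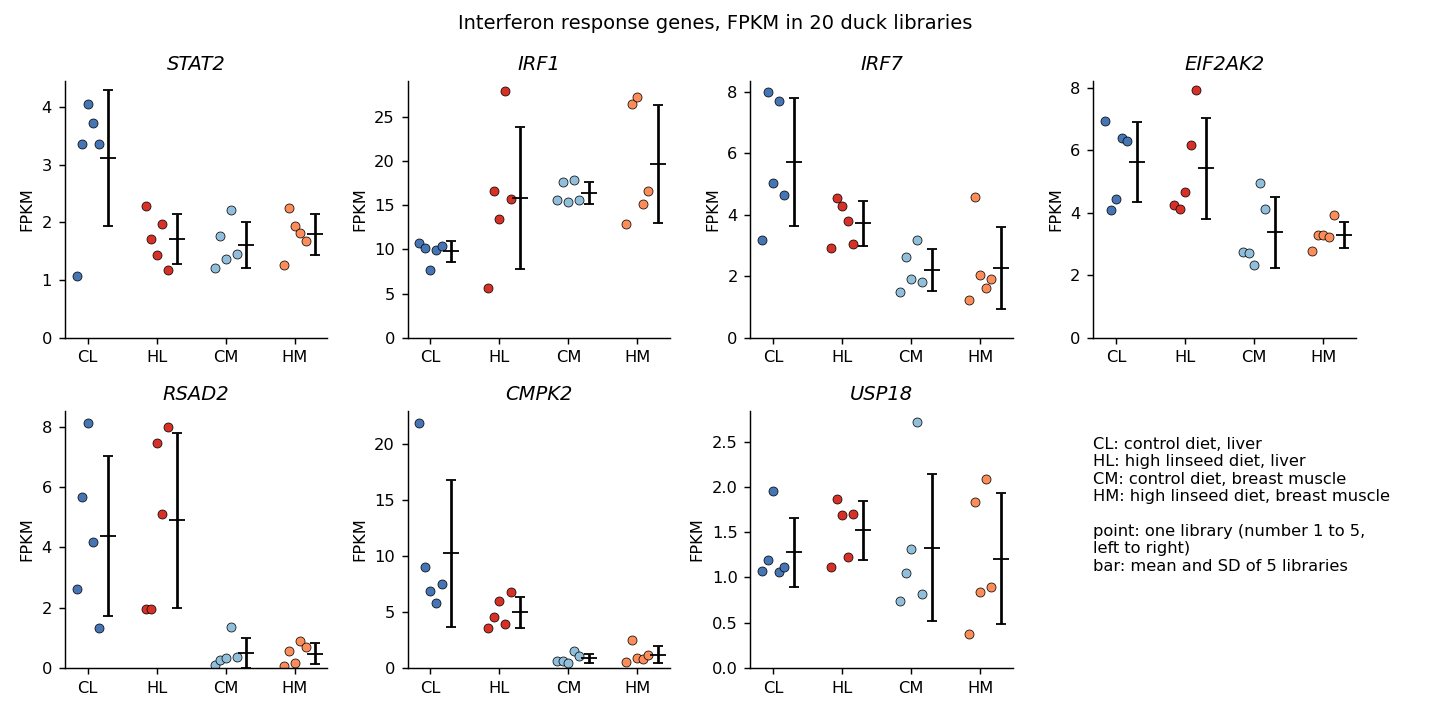
FPKM (vertical axis, from 0, with its own scale for each gene) of the 7 interferon response genes in the 4 groups. Each point is 1 library, in the order of library numbers 1 to 5 from left to right, and the bar is the mean with the SD of 5 libraries. In RSAD2 and CMPK2 the liver groups lie above the muscle groups except that RSAD2 in CM 4 (1.35 FPKM) passes CL 5 (1.31 FPKM).

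The first question was whether linseed oil changed these genes in the liver (HL vs. CL). None of the 7 passed the thresholds used here, a Benjamini-Hochberg adjusted p below 0.05 in limma over 9543 genes tested and a log2 fold change of FPKM + 1 past 1 in either direction, against a background of 0.115% of all genes tested called higher and 0.0105% called lower. Nor did any of the 7 have groups without overlap, where 1.92% of the genes tested lay wholly higher and 0.88% wholly lower in HL. At an unadjusted limma p below 0.05 there were 2 genes, STAT2 and CMPK2, both with lower means in HL, where 6.93% of all genes tested were higher and 5.42% lower at that p. The median log2 difference of the 7 genes was -0.06, beside -0.03 for all genes tested. A liver sample holds several cell types, so a lower value can stand for fewer cells of a type or for less RNA in each cell, and these cannot be told apart.

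STAT2, which in mammals joins IRF9 to carry the type I interferon signal to DNA, measured 1.08, 3.37, 4.05, 3.73 and 3.36 FPKM in CL 1 to CL 5. In HL 1 to HL 5 it measured 2.28, 1.71, 1.44, 1.98 and 1.18 FPKM. Every CL library but CL 1 lay above every HL library, and CL 1, with 28 fragments on the gene, was lower than all of HL. The means were 3.12 ± 1.18 FPKM (SD, n = 5) in CL and 1.72 ± 0.435 (n = 5) in HL, and the log2 difference was -0.55 ± 0.235 (SE, limma unadjusted p = 0.0382, adjusted p = 0.370). The ratio of mean FPKM, HL to CL, was 0.552, and 0.474 without CL 1. Without CL 1 the log2 difference was -0.78 with a limma adjusted p of 0.0339, still short of the fold threshold on the scale of log2(FPKM + 1), which understates changes of low genes. With each liver library left out in turn, the log2 difference ran from -0.78 to -0.46 and the adjusted p from 0.0339 to 0.593. CL 1 and HL 3 were also both left out, a choice made after the data were seen. Singly, their omission raised the calls over all genes from 12 to 96 and 60. With both left out the log2 difference of STAT2 was -0.74 with a limma adjusted p of 0.0253, and over all genes 261 were called.

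The transcription factors IRF7 and IRF1 had differences of opposite sign, and neither passed the test. IRF7, which drives interferon production and in chicken acts where mammals use IRF3, measured 3.17, 7.99, 5.04, 7.69 and 4.64 FPKM in CL 1 to CL 5 and 2.91, 4.53, 4.28, 3.81 and 3.04 FPKM in HL 1 to HL 5. As with STAT2, the 4 other control libraries lay above all of HL and CL 1 lay within it. Its log2 difference was -0.47 ± 0.216 (SE, limma adjusted p = 0.411), and without CL 1 it was -0.62 (adjusted p = 0.0833). With each liver library left out in turn it ran from -0.62 to -0.34 (limma adjusted p 0.0833 to 0.659). IRF1, an activator of interferon and of antigen presentation genes, measured 10.7, 10.1, 7.67, 9.96 and 10.4 FPKM in CL 1 to CL 5 and 5.60, 16.6, 13.4, 28.0 and 15.7 FPKM in HL 1 to HL 5. The control libraries were close to each other, while HL 1 lay below all of them and the other 4 HL libraries above. The SD was 1.21 FPKM in CL and 8.03 FPKM in HL, and the log2 difference was 0.50 ± 0.312 (SE, limma adjusted p = 0.555). Single omissions gave 0.27 to 0.80 (limma adjusted p 0.148 to 0.889).

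Among the effectors, CMPK2, a mitochondrial nucleotide kinase, measured 21.8, 9.02, 6.88, 5.82 and 7.49 FPKM in CL 1 to CL 5. In HL 1 to HL 5 it measured 3.58, 4.50, 5.96, 3.95 and 6.77 FPKM. CL 1, the lowest control library in STAT2, was by far the highest in CMPK2, and the groups overlapped through CL 4 and the HL 3 and HL 5 libraries. The means were 10.2 ± 6.60 FPKM (SD, n = 5) in CL and 4.95 ± 1.36 (n = 5) in HL, a ratio of 0.485, and the log2 difference was -0.79 ± 0.300 (SE, limma unadjusted p = 0.0222, adjusted p = 0.304). Without CL 1 the control mean was 7.30 FPKM and the log2 difference -0.50 (adjusted p = 0.137). Single omissions gave -0.93 to -0.50 (limma adjusted p 0.137 to 0.605).

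RSAD2, known as viperin, makes a nucleotide that stops viral RNA synthesis. It measured 2.61, 5.66, 8.11, 4.18 and 1.31 FPKM in CL 1 to CL 5 and 1.94, 1.94, 7.47, 5.12 and 8.01 FPKM in HL 1 to HL 5. Both groups spanned nearly the same range, and the log2 difference of 0.13 had a 95% confidence interval from -0.80 to 1.05. EIF2AK2, the kinase PKR that halts translation on sensing double-stranded RNA, measured 6.93, 4.09, 4.44, 6.39 and 6.29 FPKM in CL 1 to CL 5 and 4.24, 4.11, 4.67, 6.17 and 7.94 FPKM in HL 1 to HL 5. Its groups lay over each other, with a log2 difference of -0.06 and an interval from -0.48 to 0.37. USP18, a protease that removes ISG15 and in mammals blocks the interferon receptor, measured 1.07, 1.19, 1.96, 1.06 and 1.12 FPKM in CL 1 to CL 5 and 1.11, 1.86, 1.69, 1.23 and 1.70 FPKM in HL 1 to HL 5, a log2 difference of 0.15 with an interval from -0.17 to 0.47. For RSAD2 these intervals still hold changes of the size of the fold threshold, and for EIF2AK2 and USP18 they do not.

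Markers of other liver cells differed in level between the same libraries. The summed FPKM of 6 macrophage and Kupffer cell genes was 138 in CL 1 and 28.2 to 53.1 in the other control libraries, and 96.8 in HL 3 and 246 to 470 in the other HL libraries. All 6 had a positive log2 difference and an unadjusted limma p below 0.05, and MRC1, the mannose receptor, was called higher (log2 difference 1.93, adjusted p = 0.00652). Of 5 endothelial genes tested, all had positive differences with an unadjusted p below 0.05 and CDH5, an endothelial cadherin, was called higher (1.34, adjusted p = 0.0133), with list sums of 13.0 to 25.9 in CL and 33.6 to 46.8 in HL. The 8 hepatocyte genes all had negative differences, with a median log2 difference of -0.35. Of these, 2 had an unadjusted limma p below 0.05 and 0 were called. None of the markers found in the table was at 0 in all libraries of a group. The part of these cell types in the values of the 7 genes was not tested. CL 1, the control library with the lowest STAT2 and IRF7 and the highest CMPK2, was also the control library with the highest macrophage sum. It also had the highest sums of hepatocyte genes (240100 FPKM) and of leukocyte genes (45.9 FPKM) in CL. Over the 9543 genes tested it held the highest CL value of 38.4% and the lowest of 33.2%, so its extremes were not limited to these genes.

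In breast muscle (HM vs. CM) the diet comparison gave smaller differences. Of 10148 genes tested 0% were called higher and 0% lower, and the smallest adjusted p over all of them was 0.347. The study, with DESeq2 at the same thresholds on FDR and fold change, called far more genes for the diet in both tissues than the limma fits used here. RSAD2 and CMPK2 were below the filter of 1 FPKM in at least 5 of 10 libraries, and of the other 5 genes 0 were called and 0 had an unadjusted p below 0.05. Their median log2 difference was 0.0075, beside -0.0034 for all genes.

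STAT2 in muscle measured 1.22, 1.77, 1.36, 2.21 and 1.45 FPKM in CM 1 to CM 5 and 1.26, 2.25, 1.94, 1.83 and 1.69 FPKM in HM 1 to HM 5, and its log2 difference was 0.11 (95% confidence interval -0.20 to 0.41). IRF7 measured 1.48, 2.62, 1.92, 3.19 and 1.81 FPKM in CM and 1.21, 4.59, 2.05, 1.61 and 1.91 FPKM in HM, a log2 difference of -0.02 (interval -0.54 to 0.49). Both genes overlapped between the diets, and HM 2 alone carried the high IRF7 value, without which the log2 difference of IRF7 was -0.23. IRF1 measured 15.5, 17.7, 15.4, 17.9 and 15.6 FPKM in CM and 12.8, 26.5, 27.2, 15.2 and 16.6 FPKM in HM. Its log2 difference was 0.19 (interval -0.25 to 0.63). As in the liver, its spread was wider under linseed oil, with an SD of 1.23 FPKM in CM and 6.73 FPKM in HM. A test of that difference in spread was not made. Over all genes tested the HM libraries were also less alike, with a mean r of 0.911 to 0.953 against 0.959 to 0.971 in CM. In muscle IRF7 and CMPK2 also had the larger SD in HM, and STAT2, RSAD2, EIF2AK2 and USP18 the smaller. In the liver RSAD2 and EIF2AK2 had the larger SD in HL, and STAT2, IRF7, CMPK2 and USP18 the smaller.

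EIF2AK2 in muscle measured 2.75, 2.71, 2.32, 4.97 and 4.12 FPKM in CM and 2.77, 3.29, 3.27, 3.23 and 3.95 FPKM in HM (log2 difference 0.01, interval -0.36 to 0.38). USP18 measured 0.739, 1.05, 1.31, 2.72 and 0.816 FPKM in CM and 0.375, 1.83, 0.839, 2.09 and 0.895 FPKM in HM (log2 difference -0.08, interval -0.64 to 0.48). In both genes the group ranges overlapped and CM 4 held the highest value of all 10 muscle libraries. RSAD2 was close to the detection limit, at 0.111, 0.270, 0.337, 1.35 and 0.354 FPKM in CM and 0.0539, 0.549, 0.163, 0.897 and 0.708 FPKM in HM, or 1 to 29 fragments a library. CMPK2 measured 0.628, 0.600, 0.461, 1.48 and 1.04 FPKM in CM and 0.553, 2.53, 0.916, 0.776 and 1.19 FPKM in HM. By an exact two-sided permutation test of mean log2(FPKM + 1), unadjusted and with a smallest possible p of 0.00794, HM exceeded CM by 0.0071 in RSAD2 (p = 0.984) and by 0.22 in CMPK2 (p = 0.437), and without HM 2 the CMPK2 difference was 0.031.

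In the muscle groups 1 library held an extreme of all 7 genes on 1 side of each group. CM 4 held the highest CM value of 7 of 7 genes, and over the 10148 genes tested in muscle it held the highest CM value of 12.8%. HM 1 held the lowest HM value of 7 of 7 genes, and over all genes tested the lowest of 15.5%. The other extremes were divided, with the lowest of CM in CM 1 for 4 genes and CM 3 for 3, and the highest of HM in HM 2 for 3 genes, HM 4 for 2, HM 3 for 1 and HM 5 for 1. The 7 genes are part of one response, so these are not 7 independent counts, and no test was made. CM 4 had a macrophage sum of 38.4 FPKM, within the 36.9 to 47.4 of the CM group, and HM 1 had 45.4, within the 31.6 to 70.1 of HM. The summed FPKM of 3 leukocyte genes was 64.9 in CM 4, at the median of its group, and 53.4 in HM 1, the lowest of its group. HM 1 also had the lowest HM sum of the lymphocyte list, 117 FPKM. That list's sums were mostly CD74, an antigen presentation gene, which averaged 168 FPKM in CM and 195 in HM, so they do not count lymphocytes. The part of these cell types in the values of the 7 genes was not tested. In the liver no library held more than 3 of the 7 highest values in its group. Those with 3 were CL 1, CL 3 and HL 5, which held the highest value of 38.4%, 23.8% and 27.7% of the 9543 genes tested in liver. HL 1 held 5 of the 7 lowest values in HL, and over all genes tested the lowest of 25.9%.

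**Figure D2:**
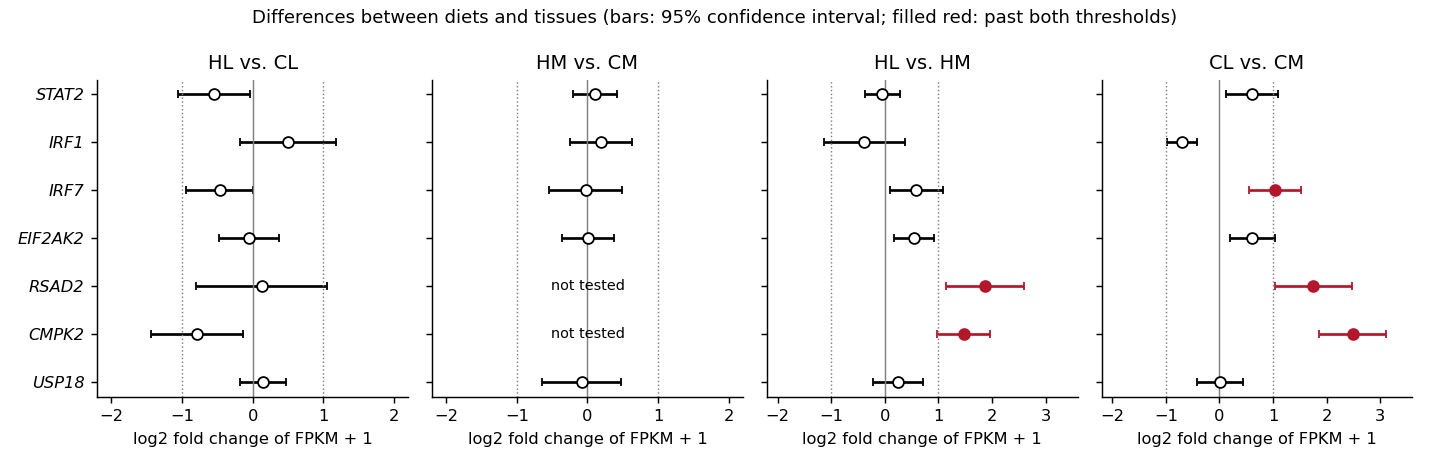
Log2 fold change of FPKM + 1 (horizontal axis) of each gene in the 2 diet and 2 tissue comparisons, with the 95% confidence interval of the limma fit as the bar, dotted lines at the fold threshold and red for genes past both thresholds. No gene is red for the diet, 2 are red between the livers and muscles of linseed ducks, and 3 between those of control ducks.

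Whether the diet acted differently in the 2 tissues was asked with an interaction term over all 20 libraries. Here 0.00888% of 11256 genes were called higher and 0% lower, and 0 of the 7 genes were called. CMPK2 had the largest estimate, a diet effect lower by 1.01 on the log2 scale in the liver than in muscle (limma unadjusted p = 0.0176, adjusted p = 0.462), and STAT2 followed with -0.65 (unadjusted p = 0.0298, adjusted p = 0.541). At an unadjusted p below 0.05, 4.58% of all genes tested were higher and 3.54% lower. With single libraries left out CMPK2 ran from -1.15 to -0.71, and it had -0.78 without CL 1 and HL 3. Its muscle values rested on 16 to 81 fragments a library. With CL 1 and HL 3 both left out, an alternative chosen after the data were seen, STAT2 had -0.85 with an adjusted p of 0.0448, again short of the fold threshold. Over all genes 137 were then called in the interaction, 96 higher and 41 lower, against 1 in the main fit.

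Between the tissues, the effectors RSAD2 and CMPK2 had the higher means in the liver under both diets. In HL vs. HM 2 of the 7, RSAD2 and CMPK2, were called higher in liver and 0 lower, where 19.8% of the 10449 genes tested were called higher and 20.4% lower. In CL vs. CM 3 of the 7, CMPK2, RSAD2 and IRF7, were called higher and 0 lower, beside 20.4% and 21.9% of 10529 genes tested. The groups did not overlap for 3 genes higher in HL than in HM (26.6% of all tested, with 25.2% lower), and for 1 gene higher and 1 lower in CL than in CM (27.7% of all tested in each direction). Counts of this size are near those of all genes and show nothing particular to the 7. RSAD2 had 0 HM and 1 CM library at 1 FPKM and CMPK2 2 of 5 in each muscle group. Both thus passed the filter through the liver, which favours genes higher there, and their values are given as a description. USP18 also needed its liver libraries to pass, with 2 HM and 3 CM libraries at 1 FPKM, and was not called.

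CMPK2 was on average 12.1 times higher in CL than in CM (log2 difference 2.48 ± 0.291 SE) and 4.15 times higher in HL than in HM (1.47 ± 0.229). With single libraries left out, the ratio of CL to CM ran from 8.69 (without CL 1) to 15.0 (without CM 4). The ratio of HL to HM ran from 3.65 (without HM 1) to 5.76 (without HM 2). Every liver library exceeded every muscle library of its diet. RSAD2, its neighbour on the chromosome, was 9.03 times higher in CL than in CM (1.75 ± 0.329) and 10.3 times higher in HL than in HM (1.87 ± 0.335). Without CM 4, its highest muscle library, the CM mean was 0.268 FPKM and the ratio of CL to CM 16.3. IRF7 was called in the control ducks (1.03 ± 0.224, limma adjusted p = 0.00123), yet it fell short of the fold threshold without CL 2, CL 4, CM 1 or CM 5, at 0.91, 0.92, 0.95 and 0.99. In the linseed ducks it had 0.59 (adjusted p = 0.0384).

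IRF1 lay the other way in control ducks. There every liver library (at most 10.7 FPKM) lay below every muscle library (at least 15.4 FPKM), with a log2 difference of -0.70 ± 0.129 (SE, limma adjusted p = 0.000340) that did not reach the fold threshold. In linseed ducks the groups overlapped and the difference was -0.38 (adjusted p = 0.350). EIF2AK2 had log2 differences of 0.61 in the control ducks (adjusted p = 0.0142) and 0.55 in the linseed ducks (adjusted p = 0.0140), without overlap in the latter and short of the fold threshold in both. STAT2 had 0.61 between CL and CM (adjusted p = 0.0298) and differed by -0.04 between HL and HM (adjusted p = 0.814), while USP18 differed by 0.01 and 0.24, with adjusted p of 0.956 and 0.333. CL enters both HL vs. CL and CL vs. CM, so the STAT2 values of these comparisons rest on the same 5 libraries.

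The wider pathway was read from a list of 81 other interferon genes, chosen with earlier results of these data known, of which 56 were in the table. In HL vs. CL 42 were tested and 0 were called, 17 with a log2 difference above 0 and 25 below, and the median was -0.19 beside -0.03 for all genes. At an unadjusted p below 0.05 there were 4 higher and 3 lower, beside the 6.93% and 5.42% of all genes tested. By role, the tested genes were 11 sensors and adaptors, 9 receptors, kinases and STATs, 3 other IRFs, 4 inhibitors, 13 effectors and 2 antigen presentation genes. The 3 with the smallest p had different roles and are given next, without having passed the test.

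SOCS1, which inhibits Janus kinases, averaged 10.5 ± 3.04 FPKM (SD, n = 5) in CL and 4.74 ± 1.87 (n = 5) in HL, a log2 difference of -1.03 ± 0.255 (SE, limma adjusted p = 0.132). It was called lower without CL 1 (-1.18, adjusted p = 0.0399) and in a fit over all 20 libraries (-1.03, adjusted p = 0.0237). Over all genes 12 were called with the liver libraries alone, 96 without CL 1, 35 of them higher and 61 lower, and 83 with all 20 libraries, 52 higher and 31 lower. EPSTI1, an interferon-induced gene, averaged 2.28 ± 1.07 FPKM in CL and 0.619 ± 0.362 in HL (-0.97 ± 0.258, adjusted p = 0.155). IFNGR1, a chain of the interferon gamma receptor, averaged 22.9 ± 7.08 FPKM in CL and 37.1 ± 4.53 in HL (0.71 ± 0.199, adjusted p = 0.173). The inhibitor and the effector thus had lower means under linseed oil and the receptor chain a higher mean. CL 1 and HL 3 were also both left out, a choice made after their effect on the calls was seen. In that fit IFI35, another interferon-induced gene, was called lower in HL (-1.11, adjusted p = 0.0268), beside SOCS1 (-1.21, adjusted p = 0.0309). Over all genes 122 were then called higher and 139 lower. In the main fit IFI35 was not called (-0.67, limma adjusted p = 0.442).

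In HM vs. CM 39 of the listed genes were tested and 0 were called, and 1 had an unadjusted p below 0.05. This was IRF2, a repressor of interferon genes, which averaged 13.1 FPKM in CM and 18.2 in HM (0.43 ± 0.146, limma adjusted p = 0.724). The next smallest p belonged to IKBKE, a kinase upstream of IRFs (-0.26, adjusted p = 0.915), and IRF8, a factor of myeloid cells (0.22, adjusted p = 0.920). In the interaction 0 of 45 were called.

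The tissues differed far more across the pathway. In CL vs. CM 19 of 42 listed genes were called higher in liver and 0 lower, and in HL vs. HM 20 of 42 higher and 0 lower, with 20.4% and 19.8% of all genes tested called higher as given above. In control ducks the called genes were 4 of 12 sensors and adaptors, 5 of 9 receptors, kinases and STATs, 2 of 3 other IRFs, 3 of 4 inhibitors, 5 of 12 effectors and 0 of 2 antigen presentation genes. Among the largest were TRIM14, an adaptor of antiviral sensing (52.9 FPKM in CL and 5.03 in CM, log2 difference 3.14), IL10RB, a receptor chain shared with interferon lambda (22.5 and 1.88 FPKM, 3.03) and SOCS1 (10.5 and 0.550 FPKM, 2.87). SOCS1 had no CM library at 1 FPKM and passed the filter through the liver alone. Of the 19 genes 15 had all 5 CM libraries at 1 FPKM or more.

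**Figure D3:**
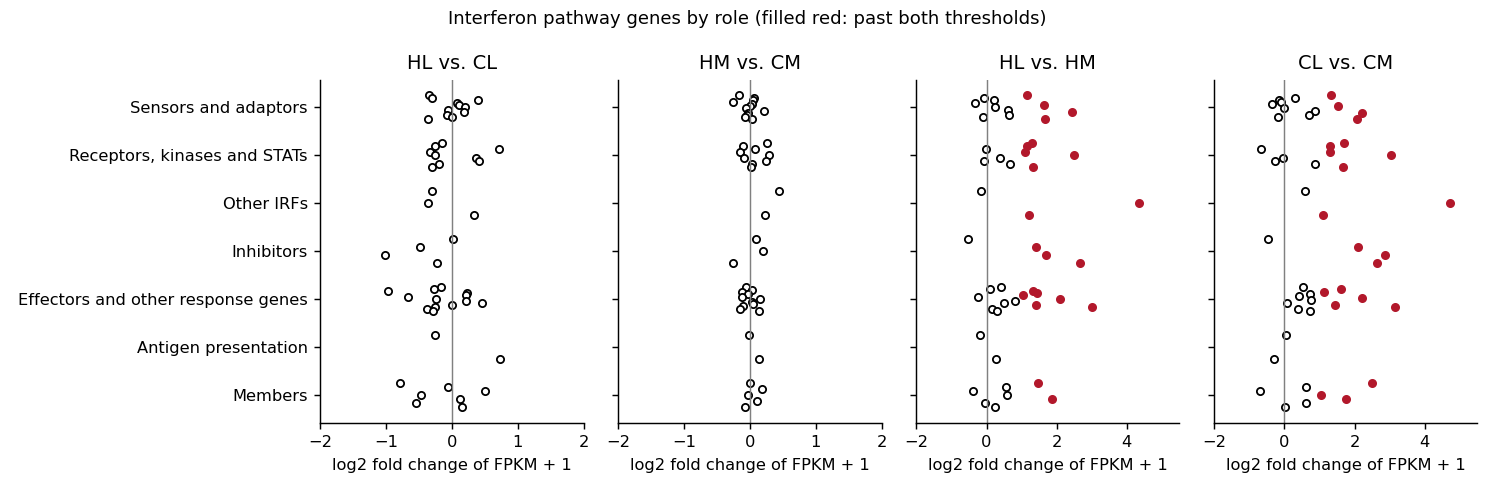
Log2 fold change of FPKM + 1 (horizontal axis) of each tested gene of the pathway list by role, with the 7 interferon response genes in the lowest band and red for genes past both thresholds. In the diet comparisons no point is red, and in the tissue comparisons all red points lie to the right, 20 listed genes for HL vs. HM, 19 for CL vs. CM.

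How far the 7 genes varied together among ducks was described by Pearson's r of log2(FPKM + 1) over the 10 libraries of a tissue, each diet group centred on its own mean. These libraries share their scaling and, within a diet, their feed, and no p is given. In breast muscle the 5 genes that passed the filter gave 10 pairs, and all 10 had r above 0, from 0.17 to 0.86 with a median of 0.60 (median Spearman's rho 0.55). The median r of these genes with all genes tested was -0.03. STAT2 and IRF7 were the closest pair at r = 0.86 and rho = 0.90. Among the 10147 other genes IRF7 ranked 9 for STAT2, and STAT2 ranked 130 for IRF7. For each pair, r was also taken without the 2 libraries farthest from the median of 1 of its genes. That gene was the one that comes first in the opening list, so the libraries left out differed between pairs. The median r then fell to 0.35, while STAT2 and IRF7 kept 0.83.

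In the liver the 7 genes did not vary together. The 21 pairs had a median r of 0.06, from -0.98 to 0.58, and 14 of them were above 0, beside a median of 0.02 with all genes tested. The single pair above 0.5 was STAT2 with IRF7, at 0.58. Without the 2 libraries farthest from the STAT2 median its r was -0.30, so it rested on those. STAT2 and CMPK2 ran against each other, with r = -0.98 and rho = -0.89 over 10 libraries, and with r = -0.97 within CL and -0.99 within HL. Among the 9542 other genes CMPK2 ranked 9541 for STAT2, counted from the most positive. Without the 2 libraries farthest from the STAT2 median r was -0.87. Libraries far out in CMPK2 alone were not left out. Without centring on diet, where both means are lower in HL, r was -0.22. The 2 neighbours RSAD2 and CMPK2 had r = 0.06 in liver, -0.29 within CL and 0.78 within HL.

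**Figure D4:**
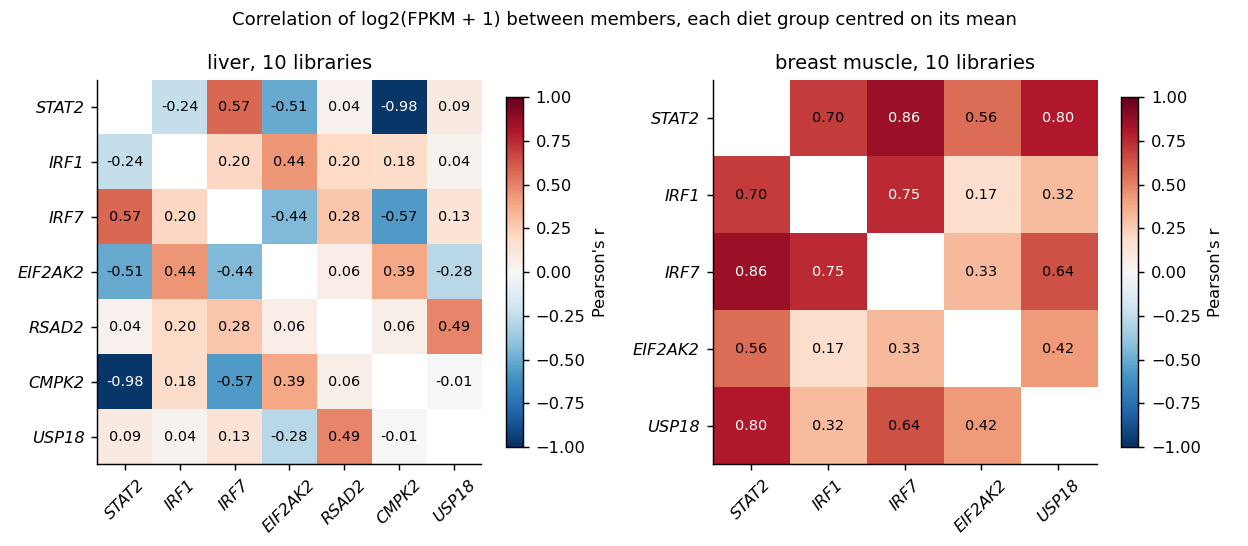
Pearson's r (colour and printed value) between the interferon response genes over 10 liver libraries and 10 breast muscle libraries, each diet group centred on its mean. In muscle all 10 pairs are above 0, and in liver STAT2 with CMPK2 is at -0.98.

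Outside the 7 genes and among genes with a symbol, the gene whose values were most like theirs in muscle was DHX58, a sensor of viral RNA, with a mean r of 0.76 over the 5 genes. EIF2B3 (0.72), POLR3F (0.71), BSDC1 (0.71) and C1H12orf66 (0.71) followed. In the liver the highest means over the 7 genes, again among genes with a symbol, were 0.38 for PHKA2, 0.37 for ESRRB, 0.37 for GYS2, 0.36 for TXNDC16 and 0.36 for HSD17B2. The mean r of a member with the other members was at most 0.19 in liver, for RSAD2, and at most 0.73 in muscle, for STAT2.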

How the data were processed

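Libraries were assigned to groups by the sample titles. The authors aligned clean reads with HISAT2 2.0.5 to the duck genome and deposited FPKM values of 25117 genes in a single table. The deposited FPKM were used as they are. Multiplied by gene length they gave whole fragments (tolerance 0.05) for 100% of values, and each library's denominator followed its median-of-ratios size factor, so the values were already scaled between libraries. Fragment counts limit the counting error only.

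Groups were compared with limma 3.58.1 (R 4.3.3, eBayes with trend) on log2(FPKM + 1), for genes with at least 1 FPKM in at least 5 fitted libraries, with Benjamini-Hochberg adjustment over all genes tested. This scale understates changes of low genes. Members below the filter were compared by exact permutation tests (scipy 1.17.1). P-values measure the spread between these 5 libraries of a group. The fit was tested on simulated data.

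The 9 members, the pathway list and the marker lists were chosen with earlier results of these data known. Named genes were all members found, the 3 listed pathway genes with the smallest p in each diet comparison, the 4 largest called ones in CL vs. CM and the 5 most similar genes with a symbol in each tissue, and IFI35 was added after its value was seen. For 1 gene of this rule no values are reported here, and the counts keep it. MYLPF, CKM, CORO1A, CD53, CD163, VSIG4, TIMD4, CD3D and the red blood cell markers were not found by symbol. T and B lymphocyte genes summed to 136 to 238 FPKM in CL and 172 to 333 in HL, and leukocyte genes to 21.7 to 45.9 and 27.3 to 113. The lymphocyte sums were mostly CD74, also listed for antigen presentation, which averaged 137, 229, 168 and 195 FPKM in CL, HL, CM and HM. In muscle lymphocyte genes summed to 123 to 212 in CM and 117 to 293 in HM, leukocyte genes to 63.0 to 75.0 and 53.4 to 109, and endothelial genes to 309 to 538 and 237 to 538.

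Alternatives were other pseudocounts, filters, scalings, robust eBayes, all 20 libraries in one fit, voom on recovered fragments, a replicate block, no fold threshold and each library left out. A promoter motif search was planned and not run, since no sequences were given.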

Additional observations from a re-analysis of the deposited data

Results flagged for a closer look

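Among 28 sets of 5 libraries (7 genes in 4 groups), 6 held a library whose distance from its nearest neighbour exceeded 0.71 of the whole range. About 1 in 20 is the rate for normal values, which FPKM need not be, and the rate over all genes was not computed. The sets also share libraries. Over all genes tested, CL 1 held the highest CL value of 38.4% and the lowest of 33.2%, and HM 2 the highest HM value of 34.9%. In CL the flagged values were STAT2 in CL 1 (1.08 FPKM, the lowest), CMPK2 in CL 1 (21.8 FPKM, the highest), IRF1 in CL 3 (7.67 FPKM, the lowest) and USP18 in CL 3 (1.96 FPKM, the highest). In muscle they were IRF7 in HM 2 (4.59 FPKM, the highest of HM) and RSAD2 in CM 4 (1.35 FPKM, the highest of CM). Both libraries marked in CL carried a pair of genes in opposite directions. CL 1 also had the highest macrophage (138 FPKM), leukocyte (45.9 FPKM) and hepatocyte (240100 FPKM) sums of its group, and their part in either gene was not tested.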

How the results depend on the processing

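In both diet comparisons and the interaction 0 of the 7 genes were called under any alternative. STAT2 in HL vs. CL passed the adjusted p threshold without CL 1 (limma adjusted p = 0.0339), and also with CL 1 and HL 3 both left out (0.0253). In those fits it was not called only because it fell short of the fold threshold. Over all single omissions its limma adjusted p ran from 0.0339 to 0.593. With a minimum of 5 FPKM only 1 gene was tested in HL vs. HM and 0 were called, and 2 were tested in CL vs. CM and 1 was called. For the pathway list in HL vs. CL, 1 gene was called with all 20 libraries and 0 to 1 when single libraries were left out. With CL 1 and HL 3 both left out 2 were called, and 1 in the interaction. That omission gave 137 calls over all genes in the interaction, against 1 in the main fit. In HL vs. CL 83 were called over all genes with all 20 libraries and 3 to 96 when single libraries were left out. The highest was without CL 1, against 12 in the main limma fit used here. The replicate block gave 0 calls over all genes (smallest limma adjusted p 0.0832), and the fit with no filter gave 3. The cause was not tested.

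Directions turned where differences were near 0. Leaving out single libraries gave log2 differences in HL vs. CL of -0.14 to 0.35 for RSAD2 and -0.18 to 0.018 for EIF2AK2, in HM vs. CM of -0.23 to 0.10 for IRF7, -0.083 to 0.13 for EIF2AK2, -0.22 to 0.10 for USP18 and -0.093 to 0.19 for RSAD2, in HL vs. HM of -0.12 to 0.033 for STAT2, in CL vs. CM of -0.084 to 0.20 for USP18, and in the interaction of -0.15 to 0.35 for RSAD2 and -0.19 to 0.027 for EIF2AK2. With CL 1 and HL 3 both left out RSAD2 had -0.15 and EIF2AK2 0.050 in HL vs. CL, and -0.16 and 0.043 in the interaction. Quantile normalization gave STAT2 0.13 in HL vs. HM. With no filter and a pseudocount of 0.1, chosen after the data were seen, RSAD2 had -0.018 and CMPK2 0.39 in HM vs. CM, against 0.0071 and 0.22 as given above.

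The labels do not say what samples of the same number share. Deviations of same-numbered libraries correlated at -0.16 to 0.33 in HL vs. CL, -0.06 to 0.37 in HM vs. CM, 0.0078 to 0.25 in CL vs. CM and -0.12 to 0.26 in HL vs. HM. These values cannot decide whether same-numbered liver and muscle libraries came from the same duck, since 2 tissues of a duck need not vary together. With the replicate block 0, 0, 2 and 3 of the 7 genes were called in HL vs. CL, HM vs. CM, HL vs. HM and CL vs. CM, and 0 in the interaction, the same counts as without it. In HL vs. CL the block gave STAT2 an adjusted p of 0.437 and CMPK2 0.358. Depth limits RSAD2 and CMPK2 in muscle, with 1 to 29 and 16 to 81 fragments a library.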

Other observations

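Entries without a gene symbol, picked by their description after values were seen, bear on the names that were not found. LOC101797569, described as an interferon-induced protein with tetratricopeptide repeats 5, measured 0.947, 1.01, 0.314, 1.15 and 0.792 FPKM in CL 1 to CL 5 and 0.518, 1.52, 4.0, 3.30 and 3.83 FPKM in HL 1 to HL 5. HL 1 lay within CL and the other 4 HL libraries above it, and the log2 difference was 0.87 ± 0.311 (SE, limma unadjusted p = 0.0168, adjusted p = 0.278). In muscle it measured 6.08 FPKM in CM 4 and 0.443 to 1.74 in the other CM libraries. LOC101800895, described as a 2'-5'-oligoadenylate synthase-like protein 2, averaged 4.92 ± 2.72 FPKM (SD, n = 5) in CL and 5.43 ± 2.16 (n = 5) in HL (limma adjusted p = 0.849). In CM 4 it measured 9.78 FPKM against 1.5 to 2.24 in the other CM libraries, and in HM 1 both entries had the lowest value of HM, as the 7 members did. LOC101793492, described as an interferon-induced GTP-binding protein Mx-like, averaged 0.318 FPKM in CL (0.253 to 0.389) and 0.921 in HL (0.368 to 1.46). It was below the filter and the groups overlapped, and it was not tested.

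Interferon genes themselves were scarcely detected. IFNG, the gene of interferon gamma, had 0 to 16 fragments in a liver library and 0 to 1 in a muscle library. LOC101798847, described as interferon alpha-2, had 0 to 4 fragments in liver and 0 to 12 in muscle. LOC101794704, described as an interferon alpha-inducible protein 27-like protein 2B, averaged 42.4 ± 23.9 FPKM (SD, n = 5) in CL and 16.7 ± 10.6 (n = 5) in HL, with a log2 difference of -1.20 (limma unadjusted p = 0.0399, adjusted p = 0.374), and 0.333 FPKM in CM and 0.145 in HM.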
